A study of Mus musculus with 8 samples.

Results

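The comparison described here is the change in the irradiation effect between 2 times in mouse small intestinal organoids, that is, the effect of 6 Gy of X-rays at day 7 less its effect at day 4. It was tested across all 8 libraries of the series and across every gene with enough counts, which left 14063 of the 55416 genes in the deposited table. The 4 groups, of 2 libraries each, were non-irradiated controls collected at day 4, organoids irradiated with 6 Gy and collected at day 4, non-irradiated controls collected at day 7, and organoids irradiated with 6 Gy and collected at day 7. All of them share 2 alleles, Rosa26-rtTA Tg/Tg and Col1A1-TetO-OSKM Tg/Tg, on the C57BL/6 strain, that is, a transgene under doxycycline control that encodes Pou5f1, Sox2, Klf4 and Myc. Whether it was switched on is not stated. The epithelial cells came from mice of 4 to 8 weeks and were grown in IntestiCult medium, so the cultures lack the stroma, blood vessels and immune cells of the gut. The labels give neither the event from which the days were counted nor whether the 2 libraries of a group came from separate cultures or animals. The p-values therefore measure only the spread between these samples, which may be technical.

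An intestinal crypt is kept by dividing Lgr5-positive stem cells, whose offspring become absorptive enterocytes or secretory cells: Paneth, goblet, enteroendocrine and tuft cells. Ionizing radiation breaks DNA and activates the transcription factor p53, whose targets stop the cell cycle, start apoptosis and, through Mdm2, switch p53 off again. Epithelial cells that survive can take on a state resembling fetal intestine, marked by annexins, Ly6 proteins and injury keratins, before crypts are rebuilt.

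Libraries held 7541760 to 16054300 expected counts in total. Expression is given in CPM, a library's counts relative to its size after TMM scaling. Effects are given as log2 fold changes of irradiated against control organoids of the same day. The biological coefficient of variation, the spread between replicates beyond counting noise, was 0.136 in day 4 controls and 0.173 in day 4 irradiated organoids. For day 7 it was 0.047 and 0.0409. Transcripts of the mitochondrial genome made up 12.9% to 27.6% of the counts, with the highest share in replicate 2 of the irradiated organoids of day 4 and the lowest shares in the irradiated organoids of day 7. Markers of epithelial identity, Krt8 and Epcam among them, summed to 4220 to 7470 CPM per library. The tested markers of mesenchymal, immune and endothelial cells summed to 5.41 to 23.1, 4.35 to 12.1 and 1.4 to 5.33 CPM. Of 14 immune markers 4 were tested, and 3 of them, Itgam, Csf1r and Lyz2, were higher after irradiation at day 4. Lyz2 is also counted among the Paneth genes described below. The 4 summed to 4.35 and 6.16 CPM in controls and 10.5 and 12.1 CPM after irradiation at day 4, and 5.58 and 5.43 against 4.59 and 6.74 CPM at day 7. Ptprc, the marker of all leukocytes, was below the count filter. Because these are bulk samples, fewer cells of a type and less RNA per cell cannot be told apart.

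The irradiation effect differed between the days for 1422 of the 14063 genes (10.1%) at an adjusted p under 0.05. In 647 of them (4.6%) the effect was higher at day 7 than at day 4 and in 775 (5.51%) it was lower. At day 4 itself irradiation changed 5130 genes (36.5%), 2808 upwards (20%) and 2322 downwards (16.5%). At day 7 it changed 1216 genes (8.65%), 661 upwards (4.7%) and 555 downwards (3.95%). Of the 5130 genes changed at day 4, 4762 had a smaller effect at day 7, against 9183 of all 14063 tested genes. Because the 5130 were picked by their day 4 effect, a smaller effect at day 7 is partly built in. Their median ratio of the day 7 to the day 4 effect was 0.296. These calls share 1 estimate of spread over both days. With each day's 4 libraries fitted alone, 3158 genes were called at day 4 and 4747 at day 7. Across all tested genes the effects of day 4 and day 7, which share no library, had a Pearson correlation of 0.4819 and a Spearman correlation of 0.4113, as a description over genes that are not independent of each other.

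Each gene was placed by its calls. A gene ebbed fully where irradiation had changed it at day 4, the difference between the days was called in the opposite direction and the day 7 effect was not called. This held for 1071 genes (7.62%), 537 of them raised (3.82%) and 534 lowered (3.8%) at day 4. A missed call at day 7 does not show a return, so the 95% interval of the day 7 effect was also read. It lay wholly within a 1.5-fold change either way for 729 of the 1071 (68.1%). The same held for 6377 of all 14063 tested genes and for 2526 of the 5130 genes called at day 4. Because the class requires no call at day 7, part of its share is built in. The 729 were 446 of the 534 lowered genes (83.5%) and 283 of the 537 raised genes (52.7%). The median day 4 effect was -0.739 in the lowered and 1.08 in the raised genes, so their shares are of unlike effects. Where the day 4 effect was itself under 1.5-fold, such an interval does not show a return. A further 170 genes (1.21%), 138 raised (0.981%) and 32 lowered (0.228%), ebbed in part, with a call of the same sign remaining at day 7. Another 618 genes (4.39%) kept their change, called in the same direction at both days without a called difference, 352 upwards (2.5%) and 266 downwards (1.89%). A missed call of the difference does not show equal effects. The estimated difference was 2-fold or more for 50 of the 352 and 12 of the 266. Only 98 genes (0.697%) emerged, called at day 7 and in the difference but not at day 4, 40 upwards (0.284%) and 58 downwards (0.412%). Opposite calls at the 2 days were found for 34 genes (0.242%), 15 of them up at day 7 (0.107%) and 19 down (0.135%), and 3 genes (0.0213%), 2 raised (0.0142%) and 1 lowered (0.00711%), had a larger effect of the same sign at day 7. A further 3234 genes (23%), 1760 raised (12.5%) and 1474 lowered (10.5%), were called at day 4 alone without a called difference. Another 293 (2.08%), 114 raised (0.811%) and 179 lowered (1.27%), were so called at day 7 alone. These are undecided between ebbing, staying and emerging. No call of any kind was made for 8496 genes (60.4%). With the days fitted alone, where more of the small day 7 effects passed, 623 genes ebbed fully, 399 in part, 1131 were kept, 251 emerged and 118 turned over. Kept genes then outnumbered those that ebbed fully, so which class is larger depends on the fit.

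**Figure D1:**
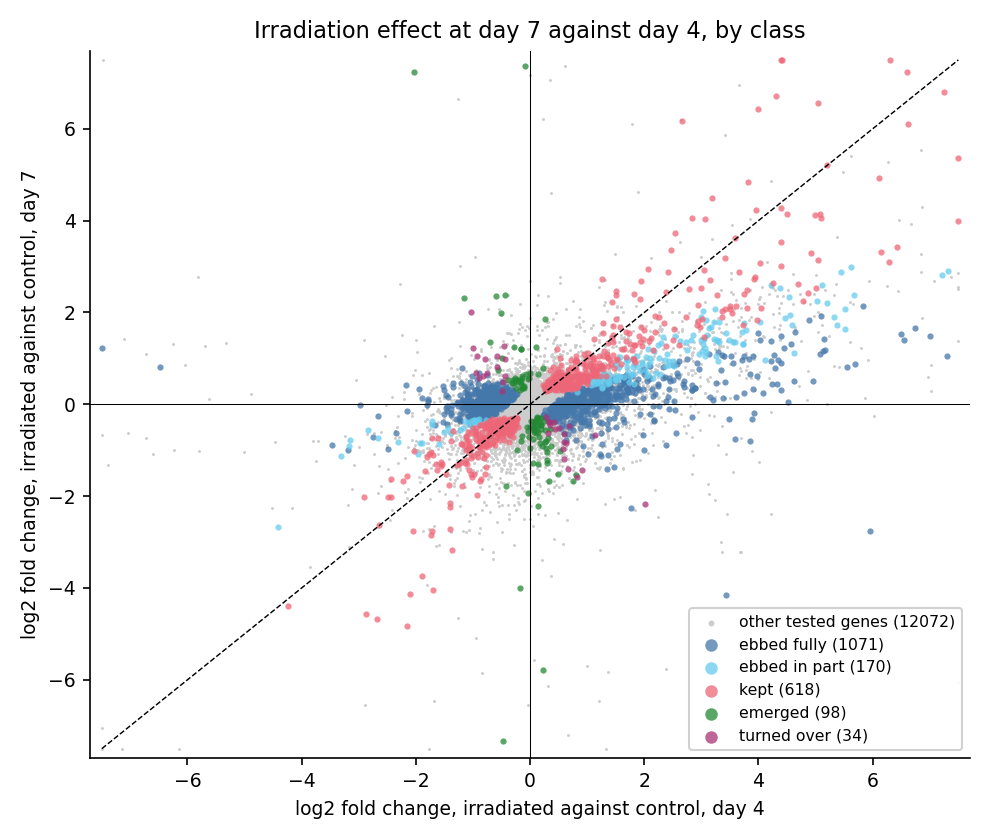
The log2 fold change of irradiated against control organoids at day 7 (vertical axis) is plotted against that at day 4 (horizontal axis) for each of the 14063 tested genes, with values beyond the axis limits drawn at the limits; the dashed line marks equal effects. The 1071 genes that ebbed fully lie along the horizontal axis and the 98 that emerged lie along the vertical axis. The 618 that kept their change have the same sign at both days but need not lie on the dashed line.

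Genes that ebbed fully moved more in the irradiated organoids than in the controls. They were picked by their day 4 effect, and irradiated organoids of day 4 had the largest spread between replicates (0.173). How much of the move follows from that choice was not tested. Between day 4 and day 7, 4639 genes (33%) changed in irradiated organoids and 382 (2.72%) in controls. Of the 537 raised genes that ebbed fully, 489 fell in irradiated organoids between the days and 34 rose in controls, with median changes of -0.862 and 0.157 log2 units. Of the 534 lowered ones, 503 rose in irradiated organoids and 26 fell in controls, with medians of 0.712 and -0.0806. The counts of calls rest on the small spread at day 7. Leaving out replicate 1 or 2 of the day 7 controls left 239 or 270 called differences, and leaving out replicate 1 or 2 of the irradiated organoids of day 7 left 274 or 240. Without replicate 2 of the day 4 controls there were 905, and without replicate 1 of the irradiated organoids of day 4 there were 2749. On the deposited TPM values, which carry no such scaling between libraries, the median difference over all genes was 0.258 log2 units against -0.0372 here. Of 308 differences called there 59.7% were higher at day 7, against 45.5% here.

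**Figure D2:**
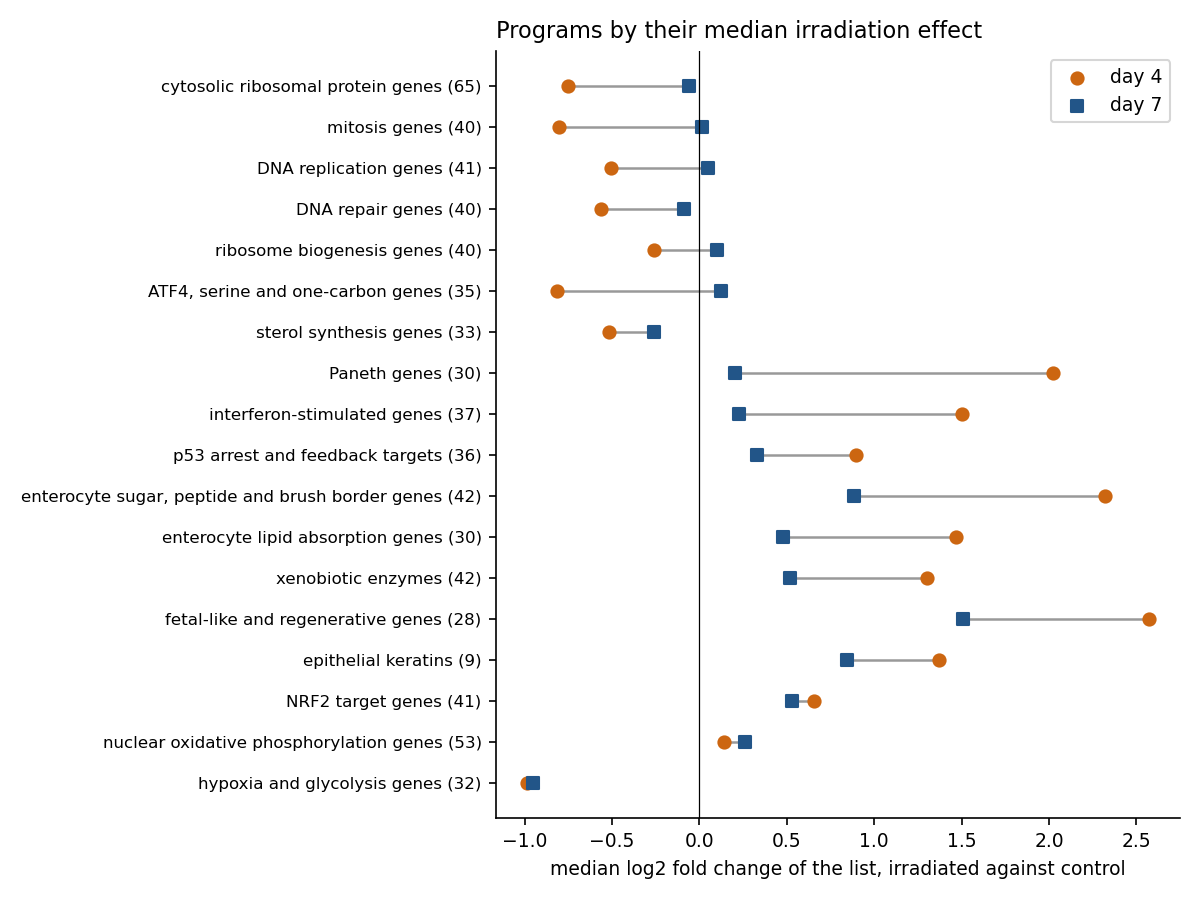
The median log2 fold change of irradiated against control organoids is shown for 18 gene lists at day 4 (circles) and day 7 (squares), with the number of tested members in brackets; the vertical line marks no change. Ribosomal protein and mitosis genes return close to 0, enterocyte and fetal-like genes stay above it, and the hypoxia and glycolysis list has nearly equal medians of -0.985 and -0.952.

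Genes of cell division and protein synthesis came back close to control levels. All 65 tested cytosolic ribosomal protein genes, which encode the subunits of the ribosome, fell at day 4, with a median of -0.753, and 3 were lower at day 7, with a median of -0.0576 that turned to 0.0853 on TPM values. Of these 65, 57 ebbed fully and all 57 were back within 1.5-fold, 3 ebbed in part and 5 were undecided. Their summed level was 47100 and 51700 CPM in controls and 30900 and 27100 CPM after irradiation at day 4, and 47900 and 47400 CPM against 44400 and 45900 CPM at day 7. The groups stood apart at both days and the gap narrowed. Rpl32 of the large subunit measured 638 and 669.9 CPM in controls and 342 and 291 CPM after irradiation at day 4, and 549 and 570.4 against 505 and 522 CPM at day 7. Its irradiated libraries lay below the controls at both days, by less at day 7. The days differed by 0.92 (SE 0.13, adjusted p = 0.00406). Rps27 ebbed in part, from an effect of -0.98 at day 4 to -0.33 at day 7, and was kept with the length trend removed (difference 0.285, adjusted p = 0.145). Most of these genes share reads with near-identical copies, so the level of a single member is uncertain. Without a day 7 library 8 to 21 of the 65 had a called difference in place of 60, and with a trend on gene length removed 35 ebbed fully and 15 were lower at day 7.

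Of 40 mitosis genes, 39 fell at day 4 with a median of -0.804, 2 were lower at day 7 with a median of 0.0147, and 30 ebbed fully, 27 of them back within 1.5-fold. Their summed level was 4820 and 4520 CPM in controls and 2830 and 2270 CPM after irradiation at day 4, against 4490 and 4390 CPM and 4180 and 4170 CPM at day 7. Nusap1, which bundles spindle microtubules, measured 91.7 and 90.3 CPM in controls and 44 and 38.5 CPM after irradiation at day 4, and 79.9 and 71.3 against 78.9 and 76.5 CPM at day 7. The irradiated libraries lay below both controls at day 4 and between the controls at day 7, and the difference was 1.18 (SE 0.14, adjusted p = 0.00161). Racgap1, which acts in cytokinesis, moved in the same way (difference 1.01, SE 0.13, adjusted p = 0.00211), as did Birc5, the passenger protein survivin (1.01, SE 0.15, adjusted p = 0.00489), and Bub1b of the spindle checkpoint (0.94, SE 0.15, adjusted p = 0.00525). Mki67, the proliferation antigen, ebbed in part. It measured 1082 and 1054 CPM in controls and 518 and 449.5 CPM after irradiation at day 4, and 931 and 929.5 against 730.2 and 717 CPM at day 7. The irradiated libraries were still the lower pair at day 7. The centromere protein gene Cenpf also ebbed in part (-1.03 at day 4 and -0.44 at day 7). Once the length trend was removed, the day 7 effects of Mki67 and Cenpf were -0.125 and -0.177 (adjusted p = 0.448 and 0.379), both ebbed fully, and 0 of the 40 were lower at day 7. Plk1 was the 1 tested member not called at either day. Leaving out a day 7 library left 5 to 10 of the 40 with a called difference in place of 32, and leaving out a day 4 library 19 to 38.

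Promoters of this list often hold the CHR element (cell cycle genes homology region, TTTGAA), through which the DREAM complex represses genes of late cell cycle phases when p53 and p21 are active. In windows from 250 bases before to 50 bases after the RefSeq gene start (GRCm38.p6), TTTGAA on either strand was found in 29 of 38 windows of mitosis genes (76.3%) and in 17.9% of all 32851 windows. The windows covered 36 of the 40 genes, 27 of which held the motif, and in 24 it lay between 40 bases before and 49 after the start. A match is a description of the letters and not a binding site. The last 60 bases before the gene start are shown for 5 members that ebbed fully, chosen after their values and motifs had been seen, to let the shared motif be read. They are written 5′ to 3′ on the coding strand with the motif in capitals, and TTCAAA is TTTGAA read on the other strand.
Cdk1, the kinase that drives entry into mitosis, chr10:69352913-69352972, minus strand: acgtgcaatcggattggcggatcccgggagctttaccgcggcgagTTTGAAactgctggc
Cdc20, an activator of the anaphase-promoting complex, chr4:118437344-118437403, minus strand: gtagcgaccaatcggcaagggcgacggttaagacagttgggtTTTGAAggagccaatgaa
Top2a, the topoisomerase that untangles chromosomes, chr11:99024190-99024249, minus strand: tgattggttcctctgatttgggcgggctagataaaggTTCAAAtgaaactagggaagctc
Ube2c, the ubiquitin-conjugating enzyme of the anaphase-promoting complex, chr2:164769869-164769928, plus strand: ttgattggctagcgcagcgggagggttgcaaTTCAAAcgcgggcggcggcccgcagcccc
Kif11, a spindle motor, chr19:37376322-37376381, plus strand: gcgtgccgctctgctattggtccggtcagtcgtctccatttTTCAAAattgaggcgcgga

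The 5 genes had been chosen for their class, and their values are a description. Cdk1 measured 78 and 79.5 CPM in controls and 56 and 37.8 CPM after irradiation at day 4, and 73 and 80.5 against 84.1 and 79.9 CPM at day 7. The difference was 0.84 (SE 0.21, adjusted p = 0.0391). Top2a measured 569 and 523 CPM in controls and 330.4 and 269 CPM after irradiation at day 4, and 497 and 499 against 475 and 469.7 CPM at day 7. From day 4 to day 7 the effect moved by 0.79 (SE 0.14, adjusted p = 0.0105). Ube2c measured 69.5 and 71.1 CPM in controls and 51.1 and 36.6 CPM after irradiation at day 4, and 70.8 and 69.2 against 92.5 and 91.7 CPM at day 7. Its irradiated libraries stood below both controls at day 4 and above both at day 7, although the day 7 effect of 0.40 was not called. Cdc20 and Kif11 had effects of -0.53 and -0.84 at day 4 and of 0.32 and -0.12 at day 7.

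DNA replication and repair genes fell at day 4 with fewer calls. Of 41 replication genes 28 fell at day 4 (median -0.506) and 0 were called at day 7 by edgeR (median 0.0483). At day 7 an unadjusted p under 0.05 was also found for 0 of them, and DESeq2 and limma-voom called 0, but limma-voom with weights by group called 3 as higher. Full ebbing was found for 12, 11 of them back within 1.5-fold, and 16 were undecided. The list's day 4 median was itself within 1.5-fold (0.585 log2 units). For members with so small an effect this margin does not show a return. The 12 were Mcm3, Mcm6, Mcm7 and Mcm10 of the helicase, Cdc45, Pola2, Pold2, Lig1, Dtl, Uhrf1, Tk1 and E2f8. Lig1, the ligase that joins Okazaki fragments, measured 94.8 and 91.5 CPM in controls and 62.3 and 50 CPM after irradiation at day 4, and 97.7 and 105 against 106 and 104 CPM at day 7. Its irradiated libraries were lowest at day 4 and overlapped the controls at day 7 (difference 0.78, SE 0.15, adjusted p = 0.0119). Without replicate 1 of the irradiated organoids of day 4, 29 of the 41 had a called difference, and without a day 7 library 0 to 1. The E2F motif TTTCCCGC was in 6 of 39 promoter windows of the list (15.4%) and in 1.07% of all. Of 40 repair genes 27 fell at day 4 (median -0.564) and 1 was lower at day 7 (median -0.0899, but 0.0224 on TPM values). In this list 4 ebbed fully, and Atm, the kinase that senses double-strand breaks, was called lower at both days. It measured 56.2 and 45.8 CPM in controls and 36.5 and 32.1 CPM after irradiation at day 4, and 52.8 and 53 against 38.4 and 37.2 CPM at day 7. Both irradiated Atm libraries lay below both controls at each day, and its effects were -0.57 and -0.49. With the length trend removed its day 7 effect was -0.25 and not called (adjusted p = 0.278), and 0 repair genes were lower at day 7. The repair list rests on single libraries too, with 0 to 1 called differences without a day 7 library and 20 without replicate 1 of the irradiated organoids of day 4.

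Genes of amino acid supply under ATF4, the transcription factor of the integrated stress response, fell and returned. Of 35 genes of this list, which includes serine and one-carbon enzymes, 29 fell and 3 rose at day 4 (median -0.818), 4 were lower and 2 higher at day 7 (median 0.121). In it 18 ebbed fully, 16 of them back within 1.5-fold. Atf5, a transcription factor of the same response, measured 47.1 and 55.9 CPM in controls and 13.8 and 16.2 CPM after irradiation at day 4, and 27.8 and 27.9 against 30.8 and 29.1 CPM at day 7. Its controls also fell between the days while its irradiated libraries rose, and they met at day 7 (difference 1.89, SE 0.18, adjusted p = 0.000725). Shmt2, the mitochondrial serine hydroxymethyltransferase, measured 87.8 and 98.1 CPM in controls and 53.9 and 41.8 CPM after irradiation at day 4, and 89.2 and 97.3 against 116 and 116 CPM at day 7. Its effect differed between the days by 1.27 (SE 0.17, adjusted p = 0.00264). Asns, asparagine synthetase, went from an effect of -1.17 to -0.0046 (difference 1.17, SE 0.15, adjusted p = 0.00285). Aldh1l2, a mitochondrial folate enzyme, ebbed in part. It measured 29.9 and 30.8 CPM in controls and 3.33 and 3.48 CPM after irradiation at day 4, and 11.3 and 12.5 against 6.43 and 7.46 CPM at day 7. Its controls fell and its irradiated libraries rose between the days (difference 2.37, SE 0.24, adjusted p = 0.000747). The 5 kept members went both ways, Slc3a2 and Slc7a11 of the cystine transporter up and Nupr1, Stc2 and Vldlr down. Vldlr, a lipoprotein receptor, measured 71.9 and 85.1 CPM in controls and 31.1 and 54.3 CPM after irradiation at day 4, and 45.5 and 44.5 against 14 and 14.1 CPM at day 7. The irradiated libraries lay below the controls at both days. In the fits without a day 7 library 9 to 10 of the 35 had a called difference in place of 19.

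Ribosome biogenesis genes, which make and process ribosomal RNA, moved less. Of 40 genes, 13 fell at day 4 (median -0.26), where 16.5% of all genes fell. At day 7, 2 were higher (median 0.103), where 4.7% of all genes were. Limma-voom with weights by group called 10 higher and 2 lower at day 7. Of the 40, 6 ebbed fully, among them Nop56 of the small nucleolar ribonucleoproteins (difference 0.54, SE 0.14, adjusted p = 0.034). Sterol and fatty acid synthesis genes under SREBP also fell at day 4. Of 33, 23 fell and 1 rose at day 4 (median -0.519), and 5 were lower at day 7 (median -0.259). Only 3 ebbed fully, 3 in part and 2 were kept. The fatty acid desaturase gene Fads1 ebbed in part (-1.72 to -0.45, difference 1.27, SE 0.14, adjusted p = 0.00107) and Fads2 fully (-1.05 to -0.036, difference 1.01, SE 0.17, adjusted p = 0.00783). Hmgcs1, an early enzyme of cholesterol synthesis, was called at day 4 without a called difference.

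**Figure D3:**
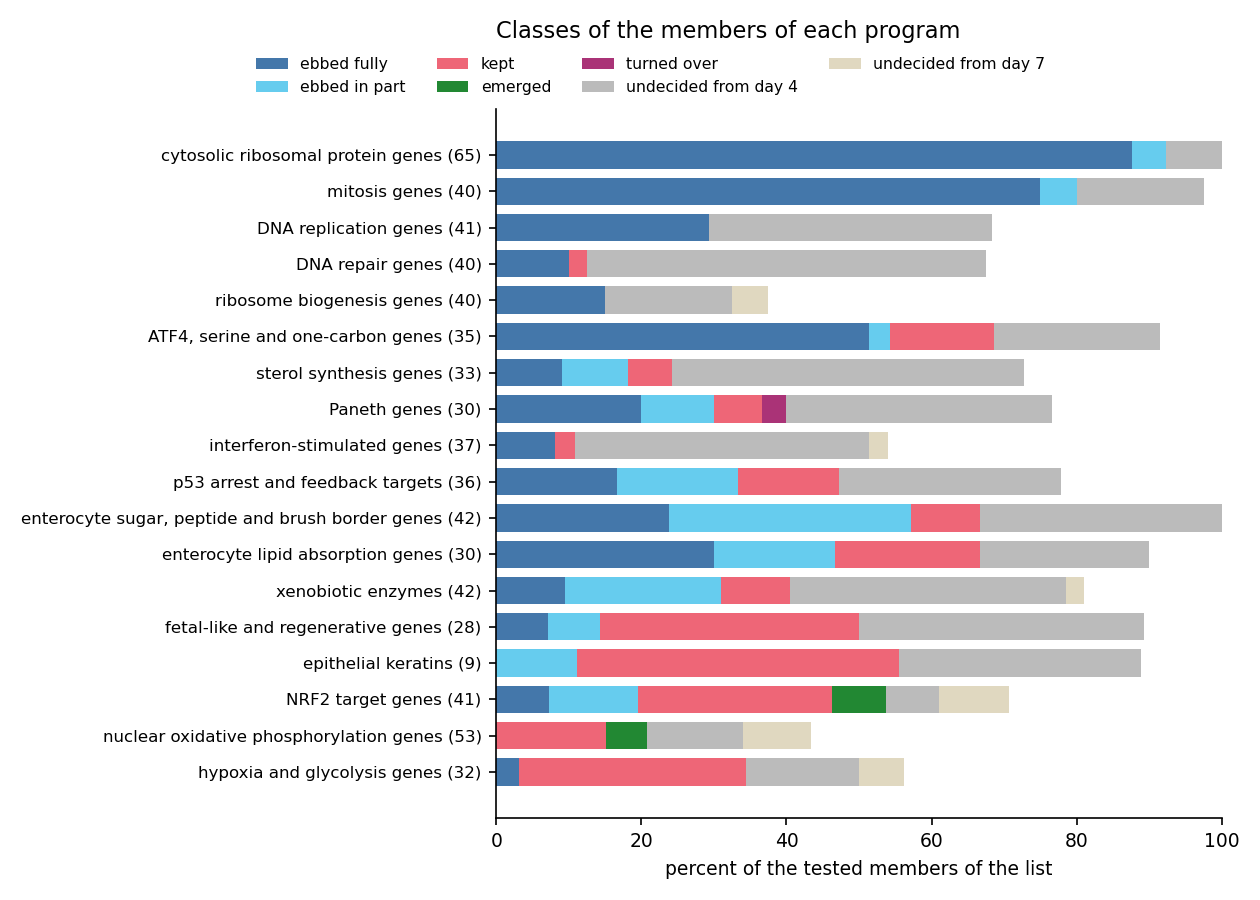
For each gene list (tested members in brackets), the bar gives the percent of members in each class by its calls, and the white remainder was called at neither day or in the difference alone or, for xenobiotic enzymes, had a larger effect of the same sign at day 7. Ribosomal protein and mitosis genes are mostly blue for full ebbing, while fetal-like, keratin, NRF2 and hypoxia genes hold the largest red shares for kept changes.

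Paneth genes and interferon-stimulated genes rose at day 4 and had medians not far from 0 at day 7. Paneth cells secrete antimicrobial proteins at the crypt base. Their genes rose in 22 of 30 cases and fell in 1 at day 4 (median 2.02), and 4 were higher and 2 lower at day 7 (median 0.201). Of the 30, 6 ebbed fully and 3 in part. Itln1, the lectin intelectin, measured 337 and 267 CPM in controls and 1157 and 1572 CPM after irradiation at day 4, and 659.9 and 648 against 506 and 531 CPM at day 7. The irradiated libraries were the higher pair at day 4 and the lower pair at day 7, and the difference was -2.51 (SE 0.21, adjusted p = 0.000694). Ang4, an antimicrobial ribonuclease, measured 31.9 and 27.6 CPM in controls and 203 and 343 CPM after irradiation at day 4, and 33.8 and 33.6 against 38.7 and 32.6 CPM at day 7. The days differed by -3.12 (SE 0.37, adjusted p = 0.00669). Lyz1, lysozyme, measured 219 and 198 CPM in controls and 681 and 1201 CPM after irradiation at day 4, and 391 and 383 against 298 and 301 CPM at day 7. Mmp7, which activates defensins, measured 11.2 and 4.21 CPM in controls and 117 and 134 CPM after irradiation at day 4, and 16.2 and 14.2 against 17.2 and 18.5 CPM at day 7. Their irradiated libraries stood above the controls at day 4, while at day 7 Lyz1 stood below them with no called effect (-0.37) and Mmp7 slightly above (0.24). None of the 6 had a day 7 interval within 1.5-fold, so a change of that size is still within these intervals. The called differences of Itln1 and Ang4 held in all 8 fits that left out a library, and those of Lyz1 and Mmp7 in 4 (adjusted p up to 0.0585 and 0.0714). Reg4, shared with enteroendocrine cells, ebbed in part and measured 122 and 98.9 CPM in controls and 453 and 467 CPM after irradiation at day 4, and 83 and 77 against 124 and 127 CPM at day 7. Lyz1 shares reads with a near-identical copy.

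Of 37 interferon-stimulated genes 19 rose at day 4 (median 1.5), 2 were higher at day 7 (median 0.224), and 3 ebbed fully: Ifit1bl2, Parp12 and Ddx58. This program differed between the replicates of day 4, and its part in the rise of immune markers at day 4, or theirs in it, was not tested. Its summed level was 785 CPM in replicate 1 and 1610 CPM in replicate 2 of the irradiated organoids, against 652 and 664 CPM in controls. At day 7 it was 542 and 555 CPM after irradiation against 496 and 500 CPM in controls. Without replicate 1 of these organoids 25 of the 37 had a called difference, and 0 to 3 had when any other library was left out. Ifit1bl2, a member of the antiviral Ifit family, measured 0.597 and 0.244 CPM in controls and 24.2 and 51.4 CPM after irradiation at day 4, and 1.18 and 1.2 against 3.16 and 3.13 CPM at day 7. All irradiated libraries exceeded all controls at both days, and the difference was -5.15 (SE 0.88, adjusted p = 0.0124). Ifit1 itself was called at neither day and measured 2.39 and 1.83 CPM in controls and 3.66 and 39.6 CPM after irradiation at day 4, and 0.751 and 0.644 against 0.714 and 0.241 CPM at day 7. A single library was high. Gvin1, an interferon-inducible GTPase, fell at day 4 and ebbed in part, from -3.17 to -0.92 (difference 2.25, SE 0.20, adjusted p = 0.000574). The interferon response element, here GAAA, any 2 bases and GAAA on either strand, was found in 17 of 39 promoter windows of the list (43.6%) and in 3.44% of all windows. The 110 bases before the start of Ifit1bl2, which hold it at 2 positions (capitals), are shown because this gene had the largest called difference of the list. The same matches also lie before the start of Ifit1, which runs the other way and was called at neither day. They are counted in the windows of both genes.
Ifit1bl2, chr19:34640744-34640853, minus strand: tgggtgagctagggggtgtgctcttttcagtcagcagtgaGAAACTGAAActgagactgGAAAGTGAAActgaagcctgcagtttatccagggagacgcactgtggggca

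The p53 targets took several courses. Of 36 arrest and feedback targets 27 rose and 1 fell at day 4 (median 0.895) and 11 were higher at day 7 (median 0.327). In class, 6 ebbed fully, 6 in part and 5 were kept. Mdm2, the ubiquitin ligase that degrades p53, measured 52.3 and 55.3 CPM in controls and 148 and 128 CPM after irradiation at day 4, and 52 and 51.9 against 49.4 and 51.9 CPM at day 7. Its day 7 libraries overlapped and its day 7 interval lay within 1.5-fold (effects 1.36 and -0.037, difference -1.39, SE 0.14, adjusted p = 0.000722). Trp53inp1, a p53-induced stress protein, measured 31.4 and 28.2 CPM in controls and 212 and 166 CPM after irradiation at day 4, and 40.1 and 39.8 against 54.7 and 53.2 CPM at day 7. It stayed slightly above the controls with no called effect at day 7 (0.43, adjusted p = 0.0552), and its difference of -2.24 (SE 0.17, adjusted p = 0.000204) was called in all 8 fits that left out a library. Cdkn1a, the p21 inhibitor of cyclin-dependent kinases, ebbed in part and measured 59.8 and 84.1 CPM in controls and 224 and 274 CPM after irradiation at day 4, and 45.2 and 49.2 against 75.4 and 74.8 CPM at day 7. Its irradiated libraries exceeded both controls at each day, and its difference of -1.12 (SE 0.23, adjusted p = 0.0202) held in 3 of the 8 fits. Ccng1, cyclin G1, measured 274 and 274 CPM in controls and 864 and 753 CPM after irradiation at day 4, and 197 and 197 against 304 and 298 CPM at day 7, also in part (-0.95, SE 0.12, adjusted p = 0.00245). Bax, which opens the mitochondrial membrane in apoptosis, was kept. It measured 21.5 and 26.9 CPM in controls and 53.8 and 39.7 CPM after irradiation at day 4, and 19.3 and 21.2 against 38.5 and 37.3 CPM at day 7. Its effects were 0.95 and 0.90. Plk3, Zmat3, Phlda3 and Aen were kept as well. Without the length trend Trp53inp1 was called at day 7 (0.516, adjusted p = 0.039), and Cdkn1a and Plk3 were not (adjusted p = 0.0775 and 0.0513). When a day 7 library was left out 3 to 5 of the 36 had a called difference in place of 12, and 0 to 1 were called at day 7 in place of 11.

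**Figure D4:**
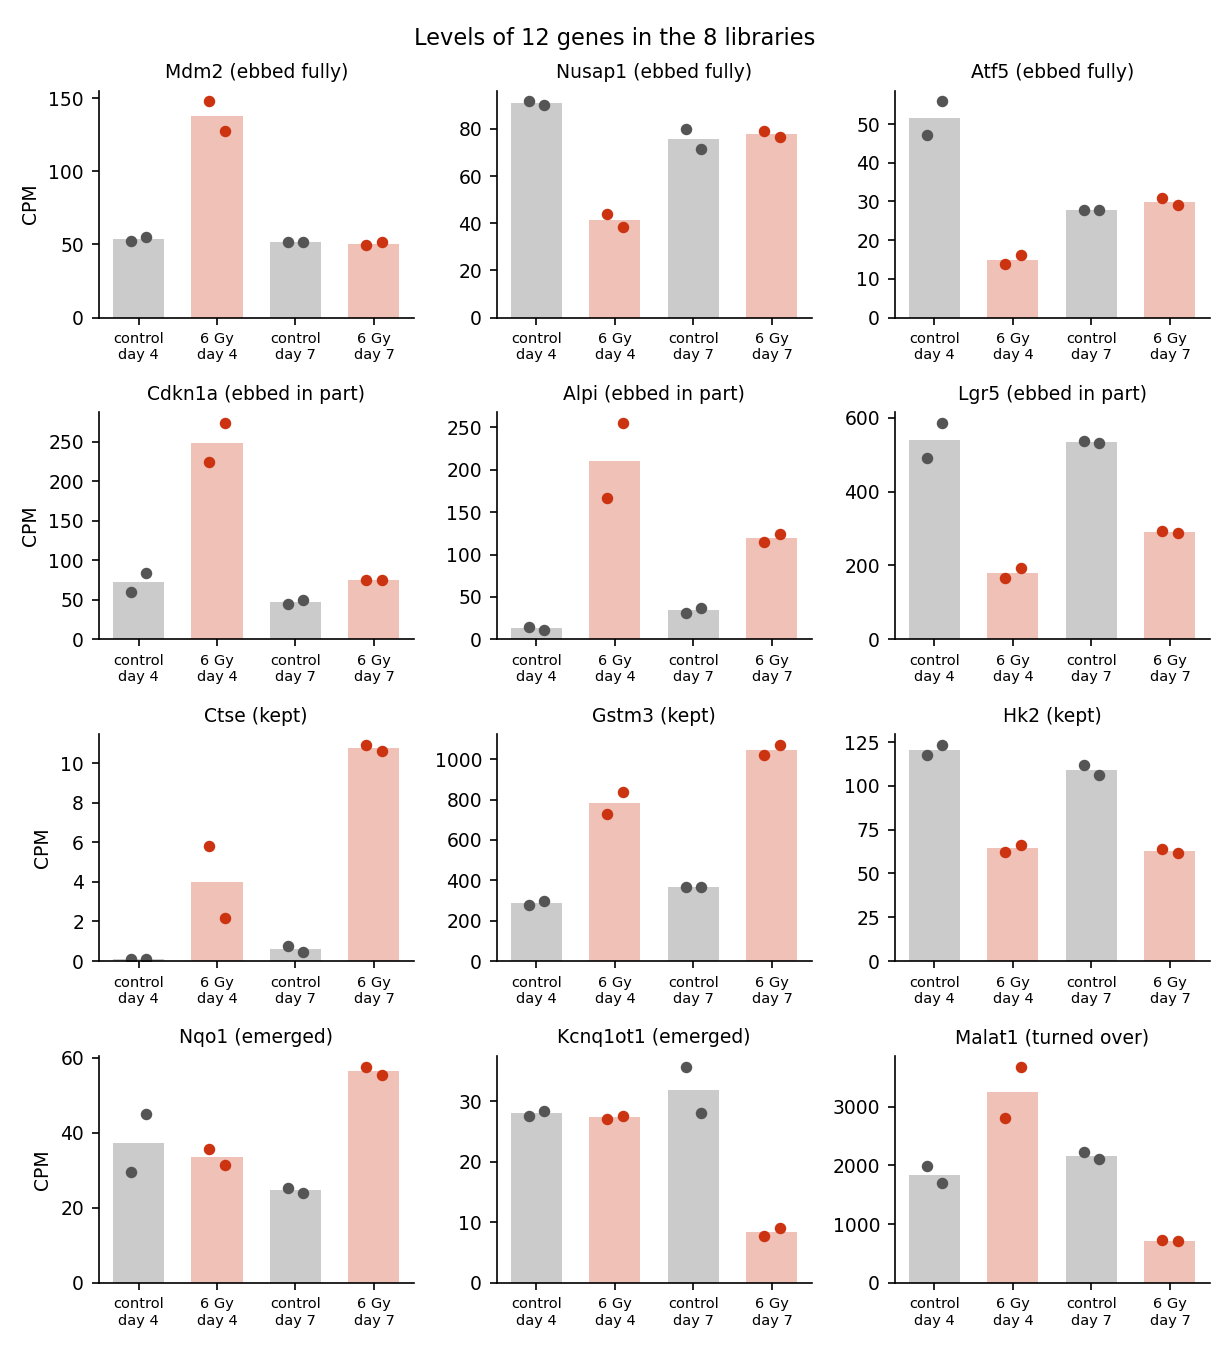
The level of 12 genes in CPM (vertical axes, from 0) is shown in the 2 control (gray) and 2 irradiated (red) libraries of each day, with bars at the group means and points for single libraries; the title of each panel names the gene's class. Mdm2 and Nusap1 return to the control level at day 7, Hk2 stays low, Nqo1 is raised at day 7 only, and Malat1 goes from above to below the controls.

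Absorptive enterocyte genes rose at day 4 and remained partly raised. Of 42 genes for sugar and peptide uptake and the brush border, 41 rose and 1 fell at day 4 (median 2.32) and 18 were higher at day 7 (median 0.882). All 42 had a smaller effect at day 7, against 4762 of the 5130 genes called at day 4 and 9183 of all 14063 tested genes. As all 42 were called at day 4, this is partly built in. By class, 10 ebbed fully, 14 in part and 4 were kept. Alpi, intestinal alkaline phosphatase, measured 14.8 and 11.3 CPM in controls and 167 and 255 CPM after irradiation at day 4, and 31.6 and 37.3 against 114 and 124 CPM at day 7. The irradiated libraries exceeded the controls at both days (difference -2.24, SE 0.32, adjusted p = 0.0103). Slc2a2, the glucose transporter GLUT2, measured 18.9 and 19.4 CPM in controls and 175 and 253 CPM after irradiation at day 4, and 23 and 25.5 against 63.7 and 64.5 CPM at day 7. The difference was -2.08 (SE 0.23, adjusted p = 0.00211). Cdhr2, a protocadherin that links microvilli, went from 2.43 to 0.86 (difference -1.57, SE 0.16, adjusted p = 0.000813). Krt20, the keratin of mature enterocytes, went from 3.0 to 1.91 (difference -1.09, SE 0.24, adjusted p = 0.0255). The largest part of this return was in the irradiated organoids, with a median change between the days of -1.54 log2 units against 0.0882 in controls. Without a day 7 library 6 to 11 of the 42 had a called lower effect in place of 23, and without replicate 1 of the irradiated organoids of day 4, 37.

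Of 30 lipid absorption genes 27 rose at day 4 (median 1.47) and 11 were higher at day 7 (median 0.477). By class, 9 ebbed fully, 5 in part and 6 were kept. Apob, the structural protein of chylomicrons, ebbed fully and measured 758 and 598 CPM in controls and 2441 and 2580 CPM after irradiation at day 4, and 806 and 818 against 1042 and 1020 CPM at day 7. Its irradiated libraries were still above the controls at day 7, with an effect of 0.35 (adjusted p = 0.0886). Its difference was -1.54 (SE 0.16, adjusted p = 0.000932). The day 7 effect was 0.665 and called with the length trend removed (adjusted p = 0.012), so that Apob then ebbed in part. Apoc2, the cofactor of lipoprotein lipase, ebbed in part (3.73 to 1.31, difference -2.42, SE 0.29, adjusted p = 0.00472), as did Creb3l3, a transcription factor of lipid secretion (3.79 to 1.61, difference -2.18, SE 0.32, adjusted p = 0.00635). Cd36, Dgat1 and Dgat2, for fatty acid uptake and triglyceride synthesis, were kept. In the fit without the length trend Dgat2 ebbed in part and Cd36 was not called at day 7 (adjusted p = 0.0702). Apoa4 was undecided. It measured 137 and 81.1 CPM in controls and 906 and 2108 CPM after irradiation at day 4, and 150 and 155 against 263 and 284 CPM at day 7. The irradiated replicates of day 4 lay so far apart that its difference of -2.95 had an adjusted p of 0.0622. Without a day 7 library 4 to 5 of the 30 had a called difference in place of 14, and without replicate 1 of the irradiated organoids of day 4, 25. Akp3, another intestinal alkaline phosphatase gene outside these lists, measured 2.04 and 1.89 CPM in controls and 75.8 and 105 CPM after irradiation at day 4, and 13 and 13.2 against 39.1 and 42.4 CPM at day 7. Its controls rose between the days, and its difference was -3.88 (SE 0.27, adjusted p = 0.000133). Cubn, the cubilin receptor of fetal-type enterocytes, measured 1.02 and 0.792 CPM in controls and 51.7 and 111 CPM after irradiation at day 4, and 1.29 and 1.84 against 4.49 and 4.69 CPM at day 7. Its difference of -4.97 (SE 0.94, adjusted p = 0.0249) held in 2 of the 8 fits that left out a library (adjusted p up to 0.146).

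Of 42 enzymes and pumps that handle foreign compounds, 31 rose and 4 fell at day 4 (median 1.3), and 15 were higher and 1 lower at day 7 (median 0.518). Here 4 ebbed fully, 9 in part and 4 were kept. Cyp3a13, an intestinal cytochrome P450, measured 69.3 and 45.2 CPM in controls and 1176 and 1185 CPM after irradiation at day 4, and 63 and 66.1 against 379 and 369 CPM at day 7. The irradiated libraries stood well above the controls at both days, with effects of 4.37 and 2.53 and a difference of -1.84 (SE 0.23, adjusted p = 0.00412). The 2 raised genes whose effect grew were both in this list. Ugt1a7c, a glucuronosyltransferase, measured 183 and 174 CPM in controls and 207 and 215 CPM after irradiation at day 4, and 152 and 139.7 against 285 and 277 CPM at day 7. From day 4 to day 7 the effect moved by 0.70 (SE 0.11, adjusted p = 0.0058). Its day 4 call (adjusted p = 0.0354) held in 2 of the 8 fits that left out a library, and it shares reads with the other genes of its locus. Ces1g, a carboxylesterase, measured 2.39 and 3.23 CPM in controls and 7.85 and 6.32 CPM after irradiation at day 4, and 1.5 and 1.56 against 10.3 and 9.75 CPM at day 7. Its difference of 1.38 (SE 0.38, adjusted p = 0.044) held in 2 of the 8 fits.

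Stem cell markers were changed by irradiation in both directions and rose between the days. Of 22, 9 were lower and 4 higher at day 4, and 5 were lower and 1 higher at day 7. From day 4 to day 7, 12 rose and 0 fell in controls and 17 rose and 0 fell in irradiated organoids, where 1.25% and 14.7% of all genes rose. With the length trend removed 1 was lower at day 7. Lgr5, the Wnt-amplifying receptor of crypt base stem cells, ebbed in part and measured 492 and 586 CPM in controls and 165 and 193 CPM after irradiation at day 4, and 537 and 532 against 294 and 289 CPM at day 7. Its irradiated libraries stayed below the controls at both days, with effects of -1.59 and -0.87. The difference of 0.72 (SE 0.15, adjusted p = 0.0162) held in 4 of the 8 fits that left out a library (adjusted p up to 0.0868). Olfm4, a secreted stem cell marker, was kept lower. It measured 693 and 723 CPM in controls and 250.5 and 424 CPM after irradiation at day 4, and 1615 and 1558 against 865 and 829 CPM at day 7. Both arms rose between the days and the gap remained, although its day 7 call was lost with the length trend removed (-0.955, adjusted p = 0.0611). Tnfrsf19, the receptor Troy, was higher after irradiation at day 4 and measured 7.67 and 5 CPM in controls and 27 and 24.8 CPM after irradiation at day 4, and 24.3 and 25.8 against 35.5 and 35.2 CPM at day 7. Its controls rose between the days, which closed most of the gap (difference -1.56, SE 0.24, adjusted p = 0.00525). Ascl2, Axin2 and Ephb2 were called at neither day.

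Fetal-like and regenerative genes rose at day 4, and part of them were kept. Of 28, 25 rose at day 4 (median 2.57) and 12 were higher at day 7 (median 1.51), with 10 kept, 2 ebbed fully, 2 in part and 11 undecided. Their summed level was 1040 and 1090 CPM in controls and 3440 and 2540 CPM after irradiation at day 4, and 1030 and 1030 CPM against 1880 and 1880 CPM at day 7. Il1rn, the antagonist of the interleukin-1 receptor, measured 3.83 and 1.52 CPM in controls and 79.6 and 53 CPM after irradiation at day 4, and 5.9 and 4.69 against 33.5 and 31 CPM at day 7. Sprr1a, a cornified envelope protein, measured 1.53 and 1.1 CPM in controls and 22.3 and 17.3 CPM after irradiation at day 4, and 1.29 and 0.92 against 6.74 and 7.82 CPM at day 7. In both genes every irradiated library exceeded every control, and the differences of -2.09 (adjusted p = 0.0504) and -1.21 (adjusted p = 0.104) were not called. Areg, the EGF receptor ligand amphiregulin, had effects of 1.67 and 1.56, from 48.4 and 81 CPM in controls and 181 and 234 CPM after irradiation at day 4, and 27.5 and 25.6 against 79.6 and 77.1 CPM at day 7.

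Clu, clusterin, a marker of revival stem cells, measured 11.1 and 3.66 CPM in controls and 184 and 82.7 CPM after irradiation at day 4, and 28.1 and 29.8 against 114 and 113 CPM at day 7. Anxa1, annexin A1, measured 10.1 and 4.57 CPM in controls and 218 and 78.7 CPM after irradiation at day 4, and 25.8 and 24.8 against 82.9 and 83.7 CPM at day 7. Their day 4 replicates lay far apart and their day 7 effects of 1.97 and 1.72 were not called, although the irradiated libraries were above the controls. Ly6a, the surface protein Sca-1, did ebb fully. It measured 2.47 and 1.58 CPM in controls and 36 and 17.1 CPM after irradiation at day 4, and 8.37 and 7.17 against 8.78 and 9.75 CPM at day 7. The groups were close together at day 7, with a difference of -3.49 (SE 0.54, adjusted p = 0.00956). That call held in 4 of the 8 fits that left out a library (adjusted p up to 0.0567). Ly6d, a related surface protein, ebbed in part and measured 0.256 and 0.122 CPM in controls and 31.8 and 24.5 CPM after irradiation at day 4, and 0.644 and 1.2 against 7.45 and 5.89 CPM at day 7. Its effect differed between the days by -4.39 (SE 0.64, adjusted p = 0.00406). For the list as a whole, 1 to 2 members were kept without a day 7 library, 15 had a called difference without replicate 2 of the irradiated organoids of day 4, and with the length trend removed 6 were kept.

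Among simple keratins, 8 of 9 epithelial keratin genes rose at day 4 (median 1.37), 5 were higher at day 7 (median 0.844), and Krt8, Krt18, Krt19 and Krt23 were kept. Krt19 measured 413 and 438 CPM in controls and 1256 and 942 CPM after irradiation at day 4, and 421 and 406 against 731 and 754 CPM at day 7, with no overlap at either day. The kept calls rest on 1 library: without replicate 2 of the irradiated organoids of day 4, 0 of the 9 were kept and 6 had a called lower effect at day 7 in place of 1. After removal of the length trend 2 were kept, Krt19 ebbed in part (difference -0.655, adjusted p = 0.0302) and Krt18 was not called at day 7 (adjusted p = 0.097). Of 8 genes typical of stomach epithelium, Ctse, Psca and Anxa10 were kept higher and Onecut2 lower. Both calls of Onecut2 ended when the length trend was removed (-0.145 and -0.0877, adjusted p = 0.199 and 0.589). Ctse, the protease cathepsin E, measured 0.0852 and 0.122 CPM in controls and 5.81 and 2.18 CPM after irradiation at day 4, and 0.751 and 0.46 against 10.9 and 10.6 CPM at day 7. It had 3 counts in both day 4 controls together, so its fold there is imprecise, and its day 7 irradiated libraries were the highest. Anxa10, annexin A10, measured 2.3 and 1.04 CPM in controls and 179 and 69.5 CPM after irradiation at day 4, and 10.8 and 8.83 against 81.4 and 87 CPM at day 7. Its difference of -3.18 was not called (adjusted p = 0.11). F3, tissue factor, had effects at the 2 days of 1.92 and 2.29 and no called difference (0.37, SE 0.33).

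NRF2 targets, the glutathione and quinone-reducing enzymes of the oxidative stress response, took several courses. Of 41, 21 rose and 1 fell at day 4 (median 0.655) and 23 were higher at day 7 (median 0.532), 11 were kept, 5 ebbed in part, 3 ebbed fully and 3 emerged. Gstm3, a glutathione transferase, measured 276 and 297 CPM in controls and 728 and 837 CPM after irradiation at day 4, and 364 and 368 against 1021 and 1071 CPM at day 7. The irradiated libraries lay above the controls by nearly the same factor at both days (1.45 and 1.51, difference 0.064, SE 0.13). Gstm1 did the same (1.45 and 1.36), and both share reads with other members of their cluster. Srxn1, sulfiredoxin, ebbed in part and measured 30 and 33 CPM in controls and 108 and 111 CPM after irradiation at day 4, and 31.9 and 35.4 against 66.6 and 68.8 CPM at day 7. The days differed by -0.79 (SE 0.14, adjusted p = 0.00799). Gsta1 also ebbed in part (3.06 to 1.24). Nqo1, the quinone reductase often used to mark NRF2 activity, emerged. It measured 29.6 and 44.9 CPM in controls and 35.7 and 31.4 CPM after irradiation at day 4, and 25.2 and 24 against 57.7 and 55.5 CPM at day 7. Its day 4 groups overlapped, its day 7 groups did not, and its difference was 1.36 (SE 0.25, adjusted p = 0.012). Gsta3 measured 30.4 and 46.3 CPM in controls and 41.3 and 42.1 CPM after irradiation at day 4, and 32.6 and 29.1 against 72.7 and 74.6 CPM at day 7. The difference was 1.15 (SE 0.24, adjusted p = 0.0202). The called differences of Nqo1, Gsta3 and Srxn1 held in 4, 3 and 5 of the 8 fits that left out a library (adjusted p up to 0.0678, 0.0992 and 0.0716). The motif TGACNNNGC of antioxidant response elements was in 13 of 44 promoter windows of the list (29.5%) and in 12.4% of all. The list's median difference of 0.0286 changed sign with the length trend removed (-0.103), without replicate 2 of the day 4 controls (-0.0928) and without replicate 1 or 2 of the irradiated organoids of day 4 (-0.034 and -0.00697). Without a day 7 library 5 to 7 of the 41 were kept and 0 emerged.

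Some hypoxia and glycolysis genes were lower at both days. Of 32, 15 fell and 1 rose at day 4 (median -0.985), 12 were lower at day 7 (median -0.952), and 10 were kept: Slc2a1, Hk2, Aldoa, Pgk1, Pkm, Pdk1, Bnip3l, Egln1, P4ha2 and Mif. Hk2, hexokinase 2, the first step of glycolysis, measured 118 and 123 CPM in controls and 62.5 and 66.1 CPM after irradiation at day 4, and 112 and 106 against 64.1 and 61.6 CPM at day 7. The irradiated libraries sat at nearly the same level at both days, below all controls, with a difference of 0.11 (SE 0.12). Bnip3l, a mitophagy receptor induced by low oxygen, measured 133 and 127 CPM in controls and 62.9 and 90.3 CPM after irradiation at day 4, and 107 and 107 against 55.9 and 56.3 CPM at day 7. P4ha2, which hydroxylates collagen, measured 21.6 and 31.5 CPM in controls and 3.76 and 12.3 CPM after irradiation at day 4, and 17.3 and 17.1 against 2.14 and 2.65 CPM at day 7, with day 7 irradiated levels the lowest. Pfkfb4, which sets the level of a glycolysis activator, was the 1 member that rose at day 4 and ebbed fully (difference -0.95, SE 0.23, adjusted p = 0.0291). The irradiated replicates of day 4 differed in this program. The list summed to 7580 CPM in replicate 1 and 13000 CPM in replicate 2, against 16600 and 18600 CPM in controls. At day 7 it summed to 6960 and 7260 CPM against 12100 and 12300 CPM. Its median difference of -0.105 was -0.461 without replicate 1, with 20 members called lower, and 0.469 without replicate 2, with 11 called higher. On TPM values it was 0.324. The medians of both days were below 0 without any single library and on TPM values, while 1 of the 32 was called lower at day 7 without any day 7 library, in place of 12.

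Other kept genes included some of the largest effects in the series. Grin1, an NMDA receptor subunit, measured 18.1 and 16.8 CPM in controls and 0.968 and 3.81 CPM after irradiation at day 4, and 8.91 and 9.84 against 0.612 and 0.12 CPM at day 7, with effects of -2.87 and -4.57. Mab21l3 measured 15.6 and 29.4 CPM in controls and 1.83 and 5.23 CPM after irradiation at day 4, and 9.34 and 8.37 against 0.204 and 0.481 CPM at day 7. Both were lower after irradiation in every library, and lowest at day 7. Prl2c3, of the prolactin family, measured 0.341 and 0 CPM in controls and 12.2 and 9.36 CPM after irradiation at day 4, and 0.429 and 0.828 against 22.1 and 17.3 CPM at day 7. Mup20, a major urinary protein, measured 0.937 and 0 CPM in controls and 61.7 and 18.6 CPM after irradiation at day 4, and 1.07 and 0.552 against 52.4 and 59.1 CPM at day 7. Their irradiated libraries exceeded all controls at both days, and the differences of -1.20 (SE 1.02) and -0.51 (SE 2.26) were not called. The day 7 calls of Grin1, Mab21l3 and Mup20 each held in 4 of the 8 fits that left out a library (adjusted p up to 0.0741, 0.132 and 0.211), and that of Prl2c3 in all 8.

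Few genes emerged at day 7. Besides the NRF2 targets, the raised ones included subunits of the mitochondrial respiratory chain encoded in the nucleus. Of 53 such genes 15 were higher at day 4 (median 0.14, but -0.08 on TPM values) and 16 at day 7 (median 0.26), 8 were kept and 3 emerged: Cox8a, Cyc1 and Uqcrq. Over all genes 20% were higher at day 4 and 4.7% at day 7. Cox8a of complex IV measured 93.7 and 99.4 CPM in controls and 97.4 and 94.9 CPM after irradiation at day 4, and 91.4 and 96.9 against 148 and 155 CPM at day 7. The groups overlapped at day 4 and were apart at day 7, where both irradiated libraries were the highest (difference 0.69, SE 0.11, adjusted p = 0.00635). Cyc1, cytochrome c1 of complex III, measured 109 and 123 CPM in controls and 118 and 109.5 CPM after irradiation at day 4, and 112 and 114 against 164 and 168 CPM at day 7. From day 4 to day 7 the effect moved by 0.59 (SE 0.12, adjusted p = 0.015). These genes are short, and with the length trend removed 4 of the 53 were higher at day 7, 1 was kept, 1 emerged and the median difference went from 0.121 to -0.0657. Of 13 transcripts of the mitochondrial genome 2 rose at day 4 (median 0.534), 3 had a lower effect at day 7, and edgeR called 0 at day 7 (median -0.412). At day 7 an unadjusted p under 0.05 was found for 5 of them, and limma-voom with weights by group called 6 as lower. Without a day 7 library 0 of the 13 had a called difference. The complex I transcript mt-Nd4 measured 19400 and 12700 CPM in controls and 22060 and 30150 CPM after irradiation at day 4, and 18760 and 19360 against 13250 and 13410 CPM at day 7. Its difference of -1.22 (SE 0.30, adjusted p = 0.0318) held in 2 of the 8 fits that left out a library. Snrpg of the spliceosome (0.92, SE 0.20, adjusted p = 0.0202) and Ulk4, a pseudokinase (1.61, SE 0.42, adjusted p = 0.0379), also emerged upwards, called in 4 and 3 of the 8 fits (adjusted p up to 0.101 and 0.159). Removing the length trend ended the day 7 calls of Snrpg and Uqcrq (adjusted p = 0.146 and 0.0521) and the called difference of Cox8a (0.362, adjusted p = 0.0655).

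Among genes that emerged downwards, Kcnq1ot1, the long antisense transcript that silences an imprinted cluster, measured 27.6 and 28.5 CPM in controls and 27.1 and 27.6 CPM after irradiation at day 4, and 35.8 and 28.1 against 7.76 and 9.02 CPM at day 7. The irradiated libraries of day 7 stood alone below the other 6, and the difference of -1.89 (SE 0.21, adjusted p = 0.00138) was called in all 8 fits that left out a library. Without a stated strand setting of the counting, reads of this transcript and of the gene it overlaps cannot be told apart. Plod2, which hydroxylates collagen lysines, measured 14.7 and 16.4 CPM in controls and 17.7 and 20.6 CPM after irradiation at day 4, and 9.23 and 8.18 against 4.08 and 3.01 CPM at day 7. Both arms fell between the days, the irradiated one further (difference -1.58, SE 0.27, adjusted p = 0.00792). Pcsk1, the convertase of prohormones in enteroendocrine cells, measured 51 and 41.3 CPM in controls and 49.2 and 57.3 CPM after irradiation at day 4, and 15.7 and 17.1 against 8.57 and 8.78 CPM at day 7. Its effect differed between the days by -1.13 (SE 0.21, adjusted p = 0.011). Gnao1, a G protein subunit, and Pros1, protein S, had differences of -1.33 and -1.51 (adjusted p = 0.0354 and 0.0368). The called differences of Plod2, Pcsk1, Gnao1 and Pros1 held in 6, 4, 2 and 2 of the 8 fits that left out a library (adjusted p up to 0.0638, 0.0772, 0.148 and 0.171).

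Malat1, an abundant long noncoding RNA of the nucleus, reversed its effect and measured 1988 and 1691 CPM in controls and 2810 and 3680 CPM after irradiation at day 4, and 2228 and 2099 against 730.2 and 704 CPM at day 7. Both irradiated libraries were above the controls at day 4 (effect 0.82, adjusted p = 0.00126) and below them at day 7 (-1.59, adjusted p = 0.000307), and the difference was -2.41 (SE 0.20, adjusted p = 0.000253), called in all 8 fits. Neat1, the scaffold RNA of nuclear paraspeckles and a p53 target, ebbed fully. It measured 485 and 479 CPM in controls and 1061 and 1323 CPM after irradiation at day 4, and 377 and 379 against 356 and 359.7 CPM at day 7. Its day 7 libraries were close together, with a difference of -1.38 (SE 0.15, adjusted p = 0.00101). Atp7a, a copper pump, measured 22.1 and 18.9 CPM in controls and 30.9 and 30.7 CPM after irradiation at day 4, and 24.6 and 23 against 16.4 and 13.8 CPM at day 7. The days differed by -1.24 (SE 0.19, adjusted p = 0.0054). Ptprn2 of secretory granules (-1.47, SE 0.22, adjusted p = 0.00489), Pclo of the presynapse (-2.07, SE 0.35, adjusted p = 0.00761) and Habp2, a hyaluronan-binding protease counted among Paneth genes (-1.41, SE 0.23, adjusted p = 0.00743), turned over in the same direction, up at day 4 and down at day 7. In the other direction, Prex2, a Rac exchange factor, measured 32.6 and 38.3 CPM in controls and 15.6 and 19.1 CPM after irradiation at day 4, and 10.6 and 11.9 against 57.1 and 33 CPM at day 7. Its controls fell between the days and its irradiated libraries rose (difference 3.04, SE 0.36, adjusted p = 0.00406). Rps27rt and Wdr89 (1.64, SE 0.15, adjusted p = 0.000574 and 1.63, SE 0.16, adjusted p = 0.000747) also turned over upwards, and both share reads with close copies elsewhere. The day 7 calls of Atp7a, Ptprn2, Habp2 and Pclo each held in 4 of the 8 fits that left out a library (adjusted p up to 0.223, 0.148, 0.186 and 0.152), and the day 4 call of Pclo in 1.

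Goblet and enteroendocrine genes were called in both directions at day 7. Of 28 goblet cell genes 11 rose and 3 fell at day 4, 4 were higher and 3 lower at day 7, and 5 had a lower effect at day 7. Zg16, a mucus lectin, was kept higher and measured 3.49 and 2.74 CPM in controls and 58.5 and 36.6 CPM after irradiation at day 4, and 4.51 and 4.87 against 30.7 and 33.9 CPM at day 7. Agr2, which folds mucins, was kept lower and measured 123 and 110.1 CPM in controls and 70.4 and 66.4 CPM after irradiation at day 4, and 60.9 and 59.2 against 31.2 and 34 CPM at day 7. In both the groups stood apart at each day. Muc2, the main intestinal mucin, was called at neither day (-0.0036 and -0.71), and its replicates of day 4 after irradiation were 403 and 655 CPM. Clca3a1 turned over downwards (difference -1.81, SE 0.20, adjusted p = 0.00107) and shares reads with a related gene. Of 37 enteroendocrine genes 13 rose and 1 fell at day 4, 4 were higher and 3 lower at day 7, and 5 had a lower effect at day 7. Over all genes 20% rose and 16.5% fell at day 4, 4.7% were higher and 3.95% lower at day 7, and 5.51% had a lower effect. With both directions together 36.5% of all genes were called at day 4, and the share of this list was near that. Between the days 13 of the 37 fell and 0 rose in controls (median -1.07), and 28 fell and 0 rose in irradiated organoids (median -1.75), where 1.46% and 18.3% of all genes fell. Cck, the hormone cholecystokinin, was kept higher and measured 49.7 and 44.7 CPM in controls and 73 and 62.2 CPM after irradiation at day 4, and 10.2 and 8.37 against 18.1 and 19 CPM at day 7. Both arms fell between the days. Chga, the granule protein chromogranin A, was called at neither day and measured 131 and 60.6 CPM in controls and 194 and 199 CPM after irradiation at day 4, and 47.1 and 49.5 against 55.4 and 61.6 CPM at day 7.

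Changes of day 7 varied with gene length, taken as the union of a gene's exons in GENCODE M21. With the genes in 10 groups of near equal size by length, the median day 7 effect was 0.12 in the shortest group (63 to 1059 bases) and -0.22 in the longest (6874 to 123179 bases). At day 4 these medians were -0.021 and -0.06, and for day 7 against day 4 in controls they were -0.01 and -0.017. Genes that emerged upwards had a median length of 1600 bases and those that emerged downwards 7068 bases, against 3064 bases for all genes; kept genes had medians of 2241 and 5899 bases. When a smooth trend of each library's log2 CPM on length was removed, a setting added after the data were seen, 749 genes were called at day 7 in place of 1216, 391 were kept in place of 618 and 47 emerged in place of 98. Of the genes first counted as emerged, 14 of 40 upwards and 23 of 58 downwards were still so, and of those kept, 207 of 352 upwards and 118 of 266 downwards. The count of genes that ebbed fully went from 1071 to 1005, and 851 of the 1071 were still in that class, 449 of 537 raised and 402 of 534 lowered ones. Among other genes named here, the called differences of Ces1g, Ddx58, Gnao1 and Nop56 were then lost (adjusted p = 0.0536, 0.053, 0.0536 and 0.0628), as were the day 7 calls of Aldoa, Egln1, Stc2, Gnao1 and Pclo (adjusted p = 0.0599, 0.0577, 0.0514, 0.105 and 0.0586). Il1rn and Zg16 ebbed in part (adjusted p of the difference 0.0495 and 0.0274). Nupr1 was not called at day 4 (adjusted p = 0.0656) and Plk1 was (adjusted p = 0.0441). The part of RNA quality or library preparation in this trend was not tested.

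**Figure D5:**
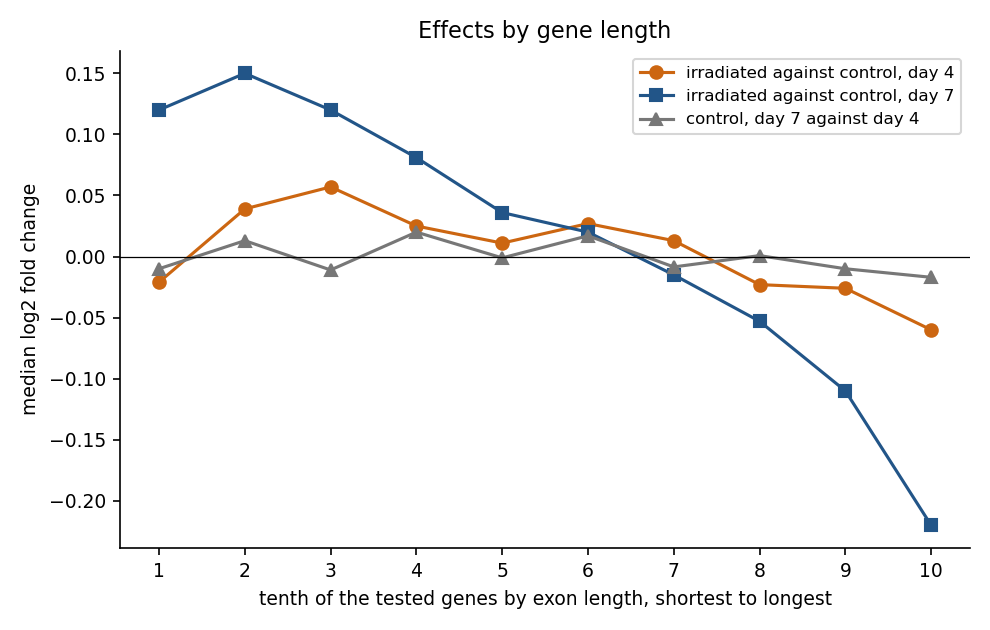
The median log2 fold change is plotted for 10 groups of near equal size of the tested genes in order of exon length, for irradiated against control organoids at day 4 (circles) and day 7 (squares) and for controls of day 7 against day 4 (triangles). The day 7 line falls from 0.12 in the shortest group, and 0.15 in the next, to -0.22 in the longest, while the control line stays between -0.017 and 0.02.

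The series title concerns partial reprogramming and the induction of Ptgs1, and the genes of the 4 transgene factors and prostaglandin genes were therefore read. Whether reads of the transgene were counted with the endogenous genes is not stated. By edgeR, Klf4 and Myc were called in no irradiation effect and not in the difference (-0.11 and 0.33), although at day 4 both had an unadjusted p under 0.05 with effects of -0.41 and -0.36. Without replicate 1 of the irradiated organoids of day 4, 1 of the 2 was called lower at day 4 and in the difference, and limma-voom with weights by group called 1 lower at day 7. Pou5f1 and Sox2 had 4 and 1 counts over all 8 libraries, and Ptgs1, the constitutive cyclooxygenase, had 19, which was too few to be tested. Ptgs2, the inducible cyclooxygenase, was kept higher and measured 0.17 and 0.67 CPM in controls and 10.6 and 4.79 CPM after irradiation at day 4, and 3.65 and 1.56 against 11.2 and 10.8 CPM at day 7. Its irradiated libraries lay above the controls at both days. Its day 7 call held in 4 of the 8 fits that left out a library (adjusted p up to 0.219). Hpgd, which inactivates prostaglandins, ebbed in part and measured 18.7 and 22.7 CPM in controls and 118 and 119 CPM after irradiation at day 4, and 28.2 and 27.5 against 53.2 and 46 CPM at day 7. The difference was -1.68 (SE 0.16, adjusted p = 0.000725).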

How the data were processed

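Poly-A RNA of 8 organoid libraries was sequenced with a strand-specific kit, per the labels' protocols. The authors deposited expected counts and TPM values per gene. The submitters' processing notes name FastQC, Trim Galore, STAR 2.7.3a, RSEM 1.3.3 and the builds GRCm39 and mm10. Which role each had, the annotation and how counting treated strand were not given in the sources used here. The deposited expected counts, 7541760 to 16054300 per library, were rounded to whole counts, which changed 11.45% of the values. Genes kept by filterByExpr (minimum count 10, minimum total 15) entered 1 fit of 4 group means with 4 residual degrees of freedom. The fit was the robust quasi-likelihood test of edgeR 4.0.16 in R 4.3.3 with TMM scaling and Benjamini-Hochberg adjustment over 14063 genes at 0.05. A single count equalled 0.061 to 0.12 CPM. The deposited TPM values were used only as log2(TPM + 1) and log2(TPM + 0.1) in limma 3.58.1, as alternatives; the others included DESeq2 1.42.0, limma-voom, other filters and scalings, and leaving out each library. The main fit was also run on simulated data, with a common spread and with the spread of each group. The outcomes are not given here, so no result rests on them.

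The members and the 51 gene lists were chosen with earlier results of these data known. The named genes were, for each class and direction, the 6 of largest difference (for kept genes, of largest mean effect) with at least 5 CPM on average and no overlap between groups. Added to these were up to 4 called members of each list by p and up to 2 others by p at day 7, and a set of markers named whatever their values. Further members named by their class were chosen after their values were seen. Gene lengths came from GENCODE M21 and promoter windows from RefSeq (GRCm38.p6), matched by symbol. Replicate numbers were not used to pair the libraries in the main fit. Deviations of same-numbered libraries from their group means correlated between -0.0355 and 0.0581. Such values show no strong shared shift but cannot exclude a shared culture or animal.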

Additional observations from a re-analysis of the deposited data

Results flagged for a closer look

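The irradiation effect differed between day 4 and day 7, by edgeR's test of that difference, for 647 genes in which it was higher at day 7 and 775 in which it was lower. The named genes among them follow, each with the log2 effect at day 7 less that at day 4; further values are given where each gene is described. With 2 libraries in each group, whether a single library stood apart from its group was not tested.

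Ribosomal protein genes had values of 0.92 for Rpl32, 0.65 for Rps27 and 1.64 for Rps27rt. Among mitosis and replication genes it was 1.18 for Nusap1, 1.01 for Racgap1, 1.01 for Birc5, 0.94 for Bub1b, 0.78 for Mki67, 0.60 for Cenpf, 0.84 for Cdk1, 0.79 for Top2a, 1.08 for Ube2c, 0.85 for Cdc20, 0.71 for Kif11 and 0.78 for Lig1. Genes of amino acid supply, ribosome assembly and lipid synthesis had values of 1.89 for Atf5, 1.27 for Shmt2, 1.17 for Asns, 2.37 for Aldh1l2, 0.54 for Nop56, 1.27 for Fads1 and 1.01 for Fads2. Paneth and goblet genes had values of -2.51 for Itln1, -3.12 for Ang4, -2.55 for Lyz1, -3.84 for Mmp7, -1.41 for Reg4, -1.41 for Habp2 and -1.81 for Clca3a1. The interferon-related genes had values of -5.15 for Ifit1bl2 and 2.25 for Gvin1. For p53 targets it was -1.39 for Mdm2, -2.24 for Trp53inp1, -1.12 for Cdkn1a, -0.95 for Ccng1 and -1.38 for Neat1. Enterocyte genes had values of -2.24 for Alpi, -3.88 for Akp3, -2.08 for Slc2a2, -1.57 for Cdhr2, -1.09 for Krt20, -1.54 for Apob, -2.42 for Apoc2, -2.18 for Creb3l3, -4.97 for Cubn, -1.84 for Cyp3a13, 1.38 for Ces1g and 0.70 for Ugt1a7c. Stem cell and injury genes had values of 0.72 for Lgr5, -1.56 for Tnfrsf19, -3.49 for Ly6a, -4.39 for Ly6d, -0.95 for Cldn4, -1.67 for Dst and -2.61 for Ptpn14. Oxidative stress and prostaglandin genes had values of 1.36 for Nqo1, 1.15 for Gsta3, -1.83 for Gsta1, -0.79 for Srxn1 and -1.68 for Hpgd. Mitochondrial genes had values of 0.69 for Cox8a, 0.59 for Cyc1 and -1.22 for mt-Nd4. The remaining genes had values of -2.41 for Malat1, -1.89 for Kcnq1ot1, -1.24 for Atp7a, -1.47 for Ptprn2, -2.07 for Pclo, 3.04 for Prex2, 1.63 for Wdr89, 0.92 for Snrpg, 1.61 for Ulk4, -1.58 for Plod2, -1.13 for Pcsk1, -1.33 for Gnao1, -1.51 for Pros1 and -0.95 for Pfkfb4.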

How the results depend on the processing

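Of 180 named genes with a called difference, 0 changed direction under any alternative. The named genes were largely chosen by their differences in these data, so a kept direction was close to fixed in advance. DESeq2 still called 155 of the 176 with a value, limma-voom 154 of 180 and log2(TPM + 1) 76 of 179. With the replicate number as a block 170 of the 180 remained called, although deviations of same-numbered libraries were hardly correlated. That block gave 655 higher and 788 lower differences, 1083 genes that ebbed fully, 644 kept and 101 emerged. It moved no count by over 1.5 times.

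Depth limits which genes were tested, since genes under the count filter have no test, and the counts of calls rest on 2 libraries a group. Leaving out 1 library at a time gave 92 to 1281 higher and 124 to 1468 lower differences. It gave 3873 to 5042 genes called at day 4, 98 to 2350 at day 7, 11 to 1253 between the days in controls and 2113 to 5251 in irradiated organoids. Full ebbing then ranged from 202 to 1743 genes (80 to 1351 back within 1.5-fold), ebbing in part from 17 to 424, kept changes from 61 to 1023, emergence from 3 to 272 and reversal from 6 to 161. The lone library left in a group was assumed to vary like the others. Of the differences, the fewest were called without a day 7 library.

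Without a filter on low counts 1429 differences were higher (58.2% of all called), 2044 genes were called at day 7, 1217 changed in controls, 1641 ebbed fully (1196 back within 1.5-fold), 324 ebbed in part, 235 emerged and 112 turned over. Calls at 2-fold or more left 163 higher and 406 lower differences, 1659 genes at day 4, 352 at day 7, 156 in controls and 1388 in irradiated organoids, and 354 fully ebbed (84 back within 1.5-fold), 62 partly ebbed, 181 kept, 37 emerged and 3 turned over, by construction fewer. On log2(TPM + 1) there were 184 higher and 124 lower differences, 2836 genes at day 4, 387 at day 7, 58 in controls, and 220 fully ebbed (43 back within 1.5-fold), 49 partly ebbed, 231 kept, 19 emerged and 15 turned over. On log2(TPM + 0.1) these were 210 and 128 (62.1% higher), 2783, 389, 55, 238 (43 back), 51, 228, 27 and 13, in the same order. Voom weights by group called 4120 genes at day 7 and 858 in controls, and 881 fully ebbed, 380 partly ebbed, 1193 kept, 274 emerged and 132 turned over. Kept genes outnumbered fully ebbed ones there and with each day fitted alone, the reverse of the main fit. DESeq2 and limma-voom had 56 and 62 emerged. Removing the length trend left 749 at day 7, 391 kept and 47 emerged. Fitting a day alone called 3158 at day 4 and 4747 at day 7, which gave 623 fully ebbed, 399 partly ebbed, 1131 kept, 251 emerged and 118 turned over. Apart from calls at 2-fold, the cause of these moves was not tested.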

Other observations

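Adhesion and junction genes took mixed courses. Of 17 claudin and tight junction genes 8 rose and 1 fell at day 4 (median 0.391), and 5 were higher and 1 lower at day 7 (median 0.21). Of the 17, 3 ebbed fully, 2 in part and 3 were kept. Cldn4, a claudin of injured and upper crypt epithelium, measured 33 and 31.6 CPM in controls and 170.2 and 147 CPM after irradiation at day 4, and 39.1 and 34.9 against 93.4 and 94.1 CPM at day 7. Its irradiated libraries lay above the controls at both days, and the difference was -0.95 (SE 0.14, adjusted p = 0.00472). Of 18 laminin-332 and integrin genes 10 rose and 1 fell at day 4, 4 were higher at day 7, and 3 ebbed fully. Dst, which anchors intermediate filaments at hemidesmosomes, measured 46.2 and 44.7 CPM in controls and 94.8 and 122 CPM after irradiation at day 4, and 42.6 and 44.9 against 30.3 and 35.7 CPM at day 7. From day 4 to day 7 the effect moved by -1.67 (SE 0.19, adjusted p = 0.00142). With the length trend removed it also ebbed fully.

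Of 28 target genes of the mechanical stress factor YAP, 15 rose and 3 fell at day 4 (median 0.649), and 3 were higher and 2 lower at day 7 (median 0.175). Undecided members made up 12. Ptpn14, a feedback inhibitor of YAP, measured 1.7 and 1.34 CPM in controls and 20.4 and 10.4 CPM after irradiation at day 4, and 5.69 and 5.15 against 8.06 and 10.1 CPM at day 7. Its effect differed between the days by -2.61 (SE 0.48, adjusted p = 0.0111). Tuft cell genes, for the chemosensory secretory lineage, fell: 9 of 15 were lower and 1 higher at day 4 (median -1.64). At day 7 edgeR's test called 0 of them (median -0.716; 1 had an unadjusted p under 0.05, and DESeq2 and limma-voom called 0 each). Dclk1, the usual tuft cell marker, measured 3.66 and 2.32 CPM in controls and 0.43 and 0.762 CPM after irradiation at day 4, and 0.859 and 0.276 against 0.306 and 0.361 CPM at day 7. Its difference was 1.58 (adjusted p = 0.348). Cxcl16, a chemokine of 26 NF-kB and chemokine genes, was kept higher and measured 6.22 and 9.57 CPM in controls and 48.7 and 33.3 CPM after irradiation at day 4, and 6.98 and 5.79 against 21 and 22.6 CPM at day 7. In that list 17 rose at day 4 and 4 were higher and 1 lower at day 7.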
